A study of Hordeum vulgare with 2 samples.

Results

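Cleavage sites listed under miR171 names were examined in 2 degradome libraries of barley (Hordeum vulgare) shoots, 1 from XZ153 and 1 from ZD9. The members are all records whose small RNA name holds miR171, in either spelling and with no further digit. They numbered 259 of 40424 records in XZ153, on 158 of 9317 genes, and 116 of 17485 records in ZD9, on 66 of 2963 genes. A record is 1 small RNA, 1 transcript and 1 cut position, and isoforms were merged to a gene by dropping the isoform suffix of the transcript ID. Both libraries came from shoots of hydroponic seedlings in a series on low potassium stress in Tibetan wild and cultivated barley. The labels name the cultivars but not which of the pair is wild. Seedlings were kept at 0.01 mM or 1 mM potassium, but no label ties a library to either level.

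In plants, microRNA miR171 guides the slicing of transcripts for GRAS-domain transcription factors of the HAIRY MERISTEM (SCARECROW-LIKE 6) group, which in Arabidopsis keep shoot meristem cells undifferentiated. The slicing enzyme cuts the target between the bases that face bases 10 and 11 of the small RNA. The 3′ fragment keeps a 5′ phosphate, so a degradome library, which reads such 5′ ends, shows a pile of reads at that base. The precursor hairpin also gives a passenger strand from its other arm, which resembles the target because both pair with the microRNA. The files give gene IDs without names, and 0 of the 204 member genes were found in the RefSeq gene table used here. Whether a listed gene encodes a GRAS-domain factor was therefore not tested, and genes are called by their IDs.

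The sites on 3 genes carried the miR171 complement, and their sequences are shown because the results turn on them. Each is the listed target stretch, 5′ to 3′, and the capitals mark the bases on either side of the listed cut.
HORVU6Hr1G063650 isoform 2 (XZ153, positions 1416 to 1437): agauauuggcgCGgcucaauca
HORVU7Hr1G001300 isoform 4 (XZ153, positions 532 to 552): gauauuggcgCGgcucaauca
HORVU1Hr1G053510 isoform 2 (ZD9, positions 180 to 200): cgagauauugGCgcggcucaa
Positions count along the transcript, since the files hold no genome coordinates. The 3 stretches share an unbroken run of 18 bases. Over all names in both lists, 6 records hold that run, 5 in XZ153 and 1 in ZD9, and 6 of 6 are under miR171 names. The run was itself taken from the best-paired miR171 records, so this count was largely fixed in advance.

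The small RNAs at these sites differ in where they start. Their sequences are given 5′ to 3′ with the seed, bases 2 to 8, in capitals.
bdi-MIR171a-p5: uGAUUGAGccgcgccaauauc
bdi-miR171a_R+1: uGAUUGAGccgcgccaauaucu
mtr-miR171c_2ss9CT21TC: uGAUUGAGucgugccaauauc
hvu-miR171-3p: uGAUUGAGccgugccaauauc
ata-miR171c-3p_R-1: uUGAGCCGugccaauaucac
bdi-MIR171e-p3: uUGAGCCGugccaauaucucu
mdm-miR171i_R+1: uGAGCCGAaccaauaucacucu
The seed GAUUGAG was shared by 6 of the 18 miR171 names, while UGAGCCG and GAGCCGA were shared by 2 names each and every other seed belonged to 1 name. The UGAGCCG names start 3 bases further in than the GAUUGAG names, and the GAGCCGA names 4 bases further in, so a name of each kind laid on the same target predicts a different cut. The prefix of a name is the species code of the known microRNA it was matched to, and hvu stands for barley.

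The spelling of a name did not separate mature microRNAs from hairpin arms by sequence. Of the names, 13 are spelled as mature microRNAs (miR) and 5 as hairpin arms (MIR). The hairpin-arm name bdi-MIR171a-p5 has the first 21 bases of the mature name bdi-miR171a_R+1, which is 1 base longer. Bases were also compared by the core GAGNCG, which all names with the 3 seeds above hold. The core was present in 10 of the 13 mature names and in 3 of the 5 hairpin-arm names. The barley microRNA hvu-miR171-3p differs from bdi-MIR171a-p5 by the substitution C12U, with positions counted from 1 at the 5′ end and the base of bdi-MIR171a-p5 first. Laid on the HORVU7Hr1G001300 site, hvu-miR171-3p forms 20 Watson-Crick pairs and 1 G:U pair over 21 bases, and bdi-MIR171a-p5 forms 21 Watson-Crick pairs. Each list gives a transcript position only once: all 40424 XZ153 records and all 17485 ZD9 records are distinct sites. The listed name is thus 1 of several that can pair there.

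The other names lack the core. All 5 are marked 5p or p5, but the mark does not set them apart, because bdi-MIR171a-p5 holds the core. Of the 5, 3 are shown for comparison, with the seed in capitals.
hvu-miR171-5p: uGUUGGCUcgacucacucaga
bdi-miR171c-5p: cGGUAUUGgugcgguucaauc
gma-MIR171d-p5_1ss4AG: uUGGAUCUuugauugaguc
In XZ153 the names without the core held 135 records on 89 genes, and the names with it 124 records on 69 genes. In ZD9 the numbers were 58 records on 29 genes and 47 records on 30 genes. The soybean arm gma-MIR171d-p5_1ss4AG alone gave 70 records in XZ153 and 34 in ZD9, more than any other miR171 name in either list. Its last bases repeat the first bases of mtr-miR171c_2ss9CT21TC, and it ends just before the core would be complete. Lacking the core therefore does not mean a sequence unrelated to the names that hold it.

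**Figure D1:**
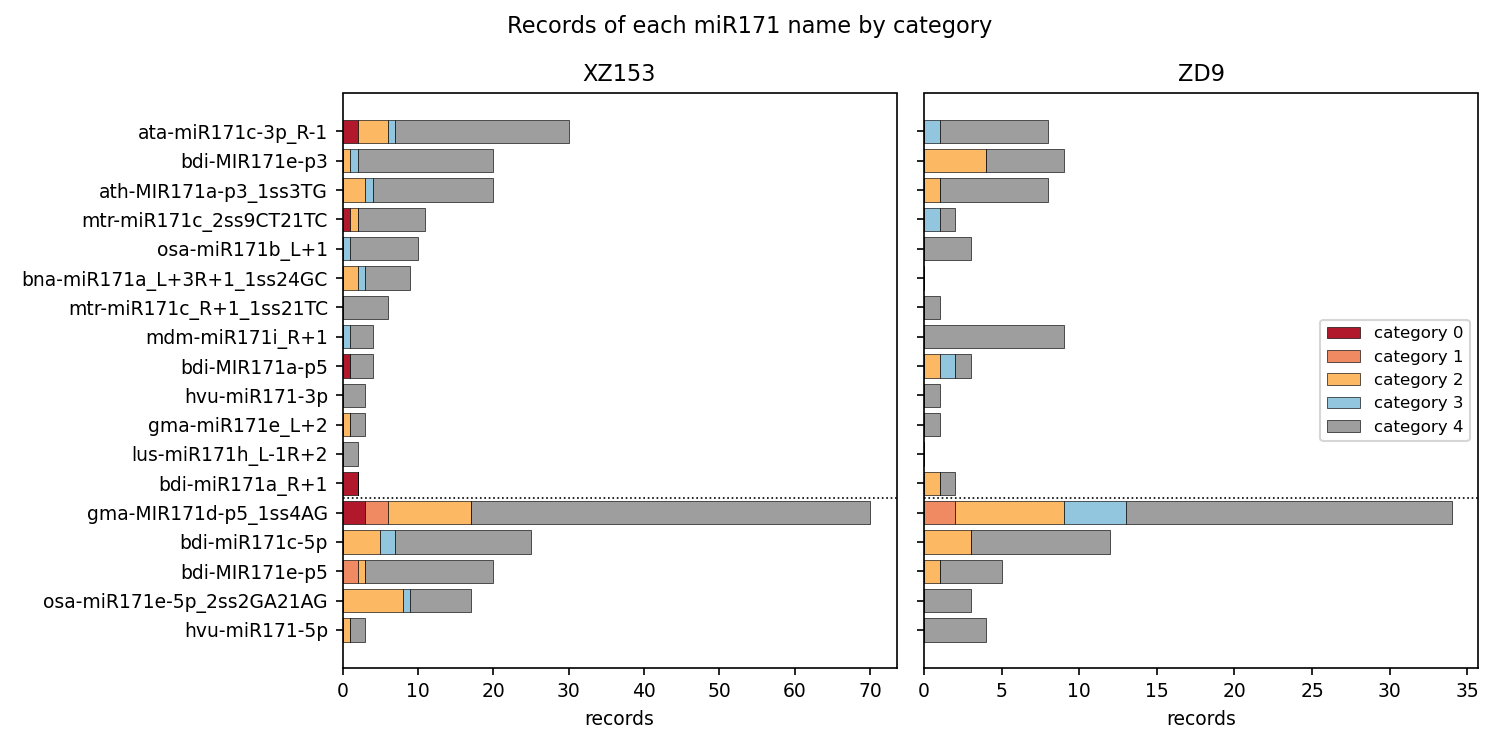
Records of each miR171 name by degradome category in XZ153 (left) and ZD9 (right); bar length is the number of records with values, colours are the categories, and names below the dotted line lack the core GAGNCG. The bar of gma-MIR171d-p5_1ss4AG reaches 70 records in XZ153 and 34 in ZD9, and the bar of bdi-miR171a_R+1 in XZ153 is 2 category 0 records.

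Category 0 cuts with low deposited p-values were listed at 2 miR171 genes of XZ153, HORVU6Hr1G063650 and HORVU7Hr1G001300. Both had perfect or nearly perfect pairing. Raw reads were used for ZD9 alone, so how many reads lay at these cuts is not known here. The category ranks a position on its transcript: 0 is the single highest position, 1 a tied highest, 2 lies above the transcript's average, 3 at or below it, and 4 is 1 read. Records in category 0 to 2 whose deposited p-value was at most 0.05 are called supported. That p-value is the authors' own for 1 record within 1 library, without adjustment for multiple records, and compares no cultivars. It varies with the free energy ratio, the free energy of the site over that of a perfectly paired one. For category 4 records of gma-MIR171d-p5_1ss4AG in XZ153 it was 0.0128 at a ratio of 0.891, 0.72 at 0.778 and 0.996 at 0.727. A low p-value and good pairing are therefore not separate evidence. In XZ153, 4 of 259 miR171 records, or 1.54%, were supported, where 0.675% of all records of the list were. Of these 4, 3 are the same site on 3 isoforms of HORVU6Hr1G063650. In ZD9, 1 of the 105 miR171 records with values, or 0.952%, was supported, where 0.695% of that list was.

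HORVU6Hr1G063650 was category 0 on 3 of 3 listed isoforms in XZ153. Isoform 1 was cut at position 1447 with a deposited p-value of 7.58e-05, isoform 2 at position 1428 with 0.000303 and isoform 3 at position 1106 with 0.000227. The 3 isoforms carry 1 and the same site, so these are not 3 independent cuts. Isoforms 2 and 3 were listed under bdi-miR171a_R+1, with 22 Watson-Crick pairs over 22 bases and an Allen score of 0. The Allen score adds up penalties for mismatched bases, so a perfect duplex scores 0. Isoform 1 was listed under mtr-miR171c_2ss9CT21TC, which differs from bdi-MIR171a-p5 by C9U and C12U and pairs there with 19 Watson-Crick and 2 G:U pairs, at an Allen score of 2. The 21 bases listed for isoform 1 are also the last 21 of the stretch in isoforms 2 and 3, so the name changed between isoforms while the site did not.

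HORVU7Hr1G001300 was category 0 at position 543 of isoform 4, with a deposited p-value of 0.000152. It was listed under the hairpin-arm name bdi-MIR171a-p5 with 21 Watson-Crick pairs over 21 bases and an Allen score of 0. The gene had this 1 record in the whole XZ153 list, under any name. The lowest p-value that category 0 reached in XZ153 was 7.58e-05, shared by 7 records. The deposited p-values of the 4 supported records were 1, 2, 3 and 4 times that value, so they differ by single steps, and the perfectly paired records do not have the lowest one.

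**Figure D2:**
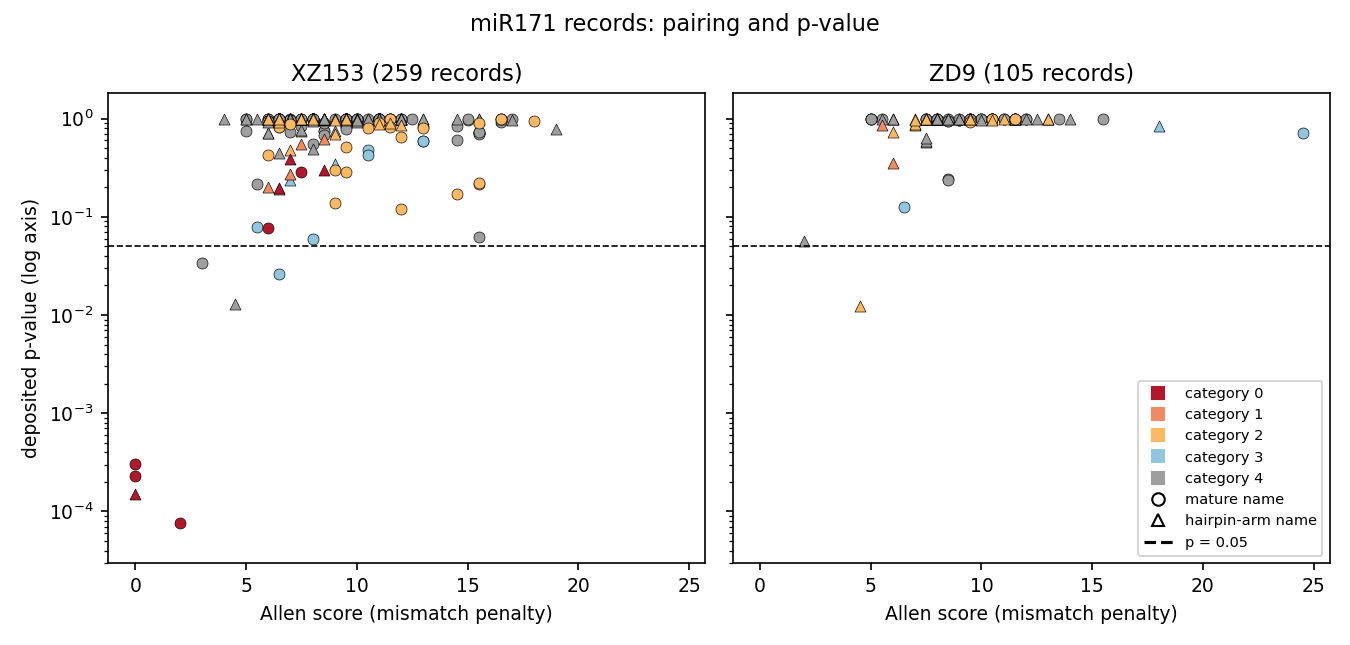
Deposited p-value (log axis) against the Allen score for each miR171 record in XZ153 (left) and ZD9 (right); circles are mature names, triangles hairpin-arm names, colours the categories, and the dashed line is the limit used for supported records. The 4 supported XZ153 records, all category 0, lie at Allen scores of 0 or 2, and the supported ZD9 record is at 4.5. The deposited p-value itself varies with pairing, so the axes are not separate evidence.

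A second cut 3 bases away on isoform 1 of HORVU6Hr1G063650 was category 4. It lies at position 1444 under ata-miR171c-3p_R-1, with an Allen score of 3 and a deposited p-value of 0.0339. This is the cut predicted for a small RNA that starts 3 bases further in, and it held a single read where position 1447 was the highest of the transcript. No cut in this register was listed on isoforms 2 and 3.

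The same 18-base run on HORVU1Hr1G053510 was listed in ZD9 only. Its cut, at position 191 of isoform 2, held 1 raw read and was category 4, with an Allen score of 2, a free energy ratio of 0.997 and a deposited p-value of 0.0572. The free energy ratio sets the site against a perfectly paired one. The record is under bdi-MIR171e-p3, a UGAGCCG name, so its cut is 3 bases before the position 194 that a GAUUGAG name would predict, and no record was listed at 194. The XZ153 list has 0 records of any name on this gene. ZD9 has 0 records on HORVU6Hr1G063650 and HORVU7Hr1G001300, but its records with values end, in ID order, at HORVU2Hr1G036110 isoform 5, before both genes. The cultivars therefore cannot be compared at HORVU6Hr1G063650 and HORVU7Hr1G001300. HORVU1Hr1G053510 lies within the range of both lists, but its 1 read in ZD9 is the smallest number that can be listed. With 1 library each, no difference between the cultivars has a replicate check.

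Names with the core that start at different bases, but lie on the target in 1 common alignment, were listed on 3 transcripts in XZ153 and 2 in ZD9. Pairs of core names that overlap with their starts out of step, as on HORVU2Hr1G110120, are not in this count. HORVU7Hr1G115040 isoform 1 in XZ153 held 4 aligned names, with cuts at positions 330, 331, 334 and 340. The cut at 330, under mdm-miR171i_R+1, was category 3 with an Allen score of 6.5 and a deposited p-value of 0.026. The cuts at 331 and 334 were also category 3, with p-values of 0.0786 and 0.0594, and the cut at 340 was category 2 with 0.905. Reads thus lay at 4 positions within the stretch, none of them the highest of the transcript, whereas on isoform 1 of HORVU6Hr1G063650 the highest position was the cut at 1447 predicted for a name with the seed GAUUGAG.

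**Figure D3:**
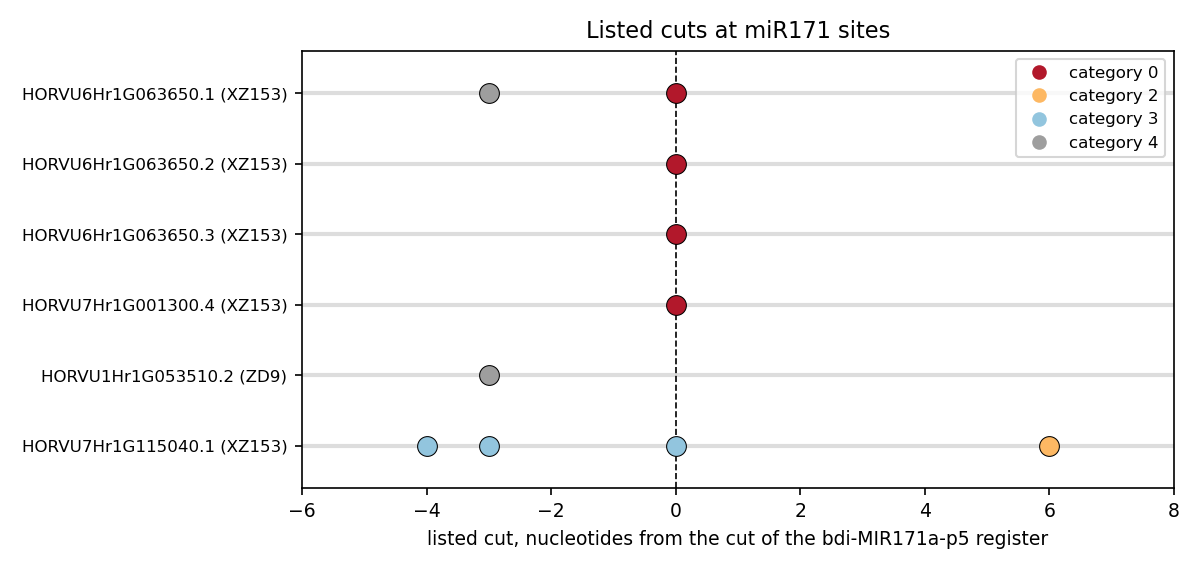
Listed cuts on transcripts with the 18-base run or with 4 miR171 names on 1 stretch; the horizontal axis is the distance in nucleotides from the cut predicted for bdi-MIR171a-p5, each point is 1 record, and colour is its category. The category 0 cuts of HORVU6Hr1G063650 and HORVU7Hr1G001300 lie at 0, and the single-read cuts on HORVU6Hr1G063650 isoform 1 and HORVU1Hr1G053510 lie 3 nucleotides before it.

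The supported site in ZD9 does not hold the 18-base run, but it opens with the bases that end that run. It lies on HORVU0Hr1G001050 isoform 1, positions 771 to 789, under the soybean arm gma-MIR171d-p5_1ss4AG, and is shown with the bases around the cut in capitals.
HORVU0Hr1G001050 isoform 1 (ZD9): ggcucaauUAaagauccug
It held 2 raw reads at position 780, in category 2, with an Allen score of 4.5 and a deposited p-value of 0.0124. The same 19 bases were listed in XZ153 on another gene, HORVU1Hr1G069380, at position 565 of isoform 2, in category 4 with a p-value of 0.0128. That gene is named because it repeats the site and was chosen after its values were seen. XZ153 had 1 record on HORVU0Hr1G001050, under a name of another family.

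Category 0 was more frequent among XZ153 miR171 records than in the whole list, at 9 of 259 records, or 3.47%, where 1.49% of all records were category 0. These 9 records fell on 7 genes, and 3 of them are the same site on the 3 isoforms of HORVU6Hr1G063650. The share by genes in the whole list is not given here. The 5 that were not supported are on HORVU2Hr1G026200, HORVU7Hr1G046410, HORVU2Hr1G090110, HORVU7Hr1G089910 and HORVU7Hr1G106280, with Allen scores of 6 to 8.5 and deposited p-values of 0.0774 to 0.385. Each was category 0 on 1 isoform and category 4 on the other isoforms listed. HORVU2Hr1G026200 came closest to the threshold, at 0.0774 on isoform 13 under ata-miR171c-3p_R-1, and isoform 2 of that gene was category 4 with a p-value of 0.989. In ZD9 0 of the 105 records were category 0, where 1.70% of that list was, and 2 were category 1.

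Well-paired miR171 sites were few. At an Allen score of at most 4, XZ153 had 1 gene under mature names, HORVU6Hr1G063650, and it was category 0, so the share is 100% with an exact Clopper-Pearson 95% interval of 2.5 to 100. The other families had a category 0 record for 35 of 153 pairs of family and gene, or 22.9% (16.5 to 30.4). With hairpin-arm names added, the miR171 genes were 3 and 2 of them category 0, or 66.7% (9.43 to 99.2), and the other families had 58 of 816 pairs, or 7.11% (5.44 to 9.09). The third gene was HORVU7Hr1G011830, where gma-MIR171d-p5_1ss4AG was category 4 with a p-value of 0.9998. ZD9 had 0 genes at this score under mature names and 1 under hairpin-arm names, HORVU1Hr1G053510. Intervals cover counting error only, because reads amplified by PCR and isoforms are not independent molecules.

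Most miR171 records were poorly paired single reads. The median Allen score was 8.5 in XZ153 and 9 in ZD9, where the records of all other names had a median of 8.5 in both lists. The deposited p-value was above 0.9 for 183 of 259 records in XZ153 and for 89 of 105 in ZD9. The share among all other records was not computed, so these counts are not read as particular to miR171. Category 4 made up 76.4% of miR171 records in XZ153, where it was 73.4% of the whole list, and 74.3% in ZD9, where it was 66.2%. Full Watson-Crick pairing of the seed was found in 31 of 259 XZ153 records, on 18 genes. This was 12.0% (8.28 to 16.6), where it was 7.69% of all other records. In ZD9 it was 15 of 105 records on 8 genes, or 14.3% (8.22 to 22.5), where it was 8.13%. Isoforms of a gene repeat the same duplex, so intervals over records are too narrow to set these shares apart. Pairing without a break from base 2 to base 11 was found in 9 of 259 XZ153 records, or 3.47% (1.6 to 6.49), where it was 2.12% of all other records. In ZD9 it was 1 of 105, or 0.952% (0.0241 to 5.19), where it was 2.38%, so the lists differ in direction and both intervals hold the share of the other records. The XZ153 records lie on 5 genes, HORVU6Hr1G063650, HORVU7Hr1G001300, HORVU7Hr1G081770, HORVU6Hr1G059290 and HORVU4Hr1G007440. The last 3 had Allen scores of 7, 8 and 9.5, and their lowest deposited p-value was 0.272. The alignment held a gap in 190 of 259 miR171 records in XZ153, or 73.4%, where the share was 66.2% among all other records. In ZD9 it was 69 of 105, or 65.7%, where it was 66.5%, so the higher share of XZ153 was not seen there.

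Raw reads, which were used for ZD9 alone, were low at miR171 sites. Summed over records they were 177 of 34935, or 0.507%, where miR171 made up 105 of the 15544 records with values. Isoform records repeat a site, so such sums may count a read more than once. Of the 105 records 78, or 74.3%, held 1 read, where 66.1% of all other records did. Records with 2 reads numbered 17, records with 3 to 5 reads 6, and records above 5 reads 4. Mature names held at most 3 reads at a site and 53 in all, and hairpin-arm names at most 19 and 124 in all. The depth of either library is unknown, so reads are not scaled to it.

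The 5 ZD9 genes with the most reads were all under hairpin-arm names and had deposited p-values of at least 0.845. HORVU1Hr1G051700 held 8, 19 and 9 raw reads on isoforms 1, 7 and 6 under bdi-MIR171e-p3, all category 2, with an Allen score of 7 and deposited p-values of 0.879, 0.861 and 0.877. In XZ153 the same cuts were category 4, 2 and 3, and isoform 4 was also listed, in category 4. This gene had records under many names, 56 in XZ153 and 79 in ZD9, of which 4 and 3 were miR171 records. HORVU1Hr1G091850 held 7 reads at position 990 under bdi-MIR171e-p3, where another site of the gene reached 14 reads under a different name. HORVU0Hr1G031850 held 5 reads at position 1247 under bdi-MIR171a-p5, with 9 gaps in the alignment and an Allen score of 18. HORVU0Hr1G017570 held 1 to 4 reads over 6 isoforms under gma-MIR171d-p5_1ss4AG, and HORVU1Hr1G059970 held 4 reads and 1 read on its 2 isoforms under ath-MIR171a-p3_1ss3TG. The highest counts therefore lay at poorly paired sites, and the site with the 18-base run held 1 read.

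**Figure D4:**
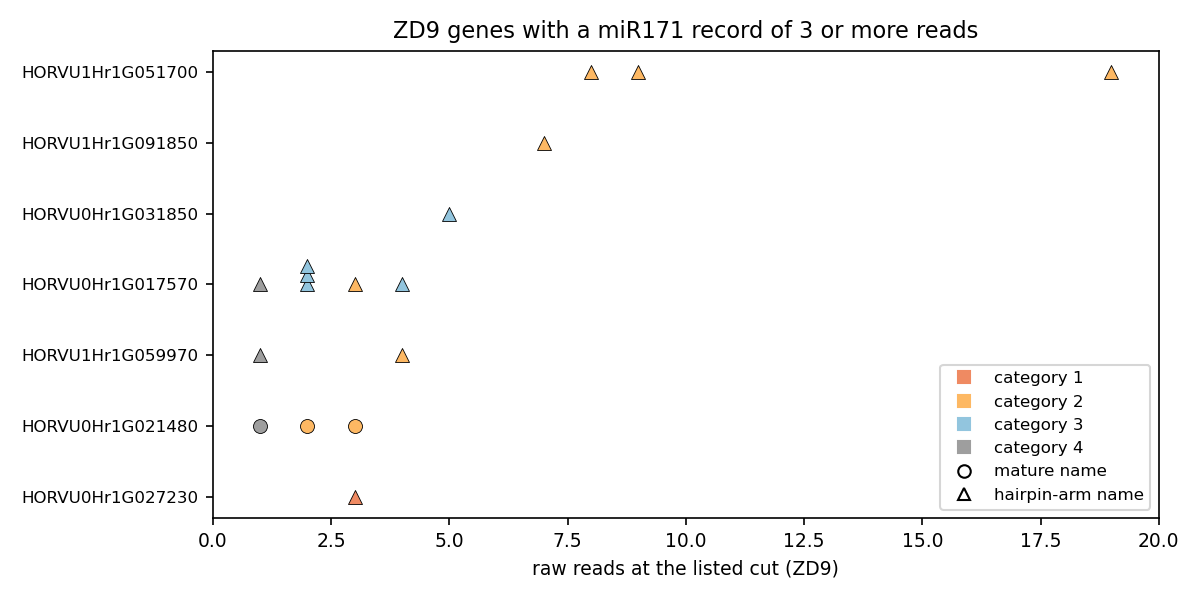
Raw reads at the listed cut for ZD9 genes with a miR171 record of 3 or more reads; each point is 1 isoform's record, triangles are hairpin-arm names, circles mature names, and colours are categories. HORVU1Hr1G051700 has the 3 highest points, at 8, 9 and 19 reads, in category 2.

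Up to the last ZD9 record with values, XZ153 had 56 miR171 records on 38 genes and ZD9 105 on 59 genes. Sites at the same transcript and position numbered 11, which is 19.6% of the XZ153 sites and 10.5% of the ZD9 sites in that range. Over all names 2907 sites were shared, 34.8% and 18.7%. The 11 sites lie on 8 genes and carry the same name in both lists, and their category was the same for 6. With isoforms merged, 13 genes were shared, 34.2% of the XZ153 and 22.0% of the ZD9 genes. The share of genes over all names was not computed, and the shares of sites are in a different unit. None of the shared sites was supported in either list, and 0 of the 56 XZ153 records in this range were, where 0.910% of all XZ153 records there were supported. In category 0 was 1 of the 56, that of HORVU2Hr1G026200, where 1.40% of all XZ153 records there were. The shared site with the most ZD9 reads was that of HORVU1Hr1G051700, and 5 of the others held 1 read and 3 held 2 reads.

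Categories varied between isoforms that carry the same site. In XZ153, 55 miR171 sites were listed on more than 1 isoform, and 25 of them spanned more than 1 category. In ZD9 the numbers were 21 and 7, and 8 of the 21 had unequal reads on their isoforms. The same counts over all names were not made, so they are not read as particular to miR171. HORVU6Hr1G063650, category 0 on each listed isoform, is among the sites with 1 category. HORVU7Hr1G081770 shows the other case, with category 1 on isoform 7 and category 4 on isoforms 1, 4 and 6. The assignment of reads to isoforms is not described in the labels or headers.

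The related family miR170 was listed under 1 name, aly-miR170-5p, with 13 records with values in XZ153 and 2 in ZD9. None of these records holds the 18-base run, because all 6 records with it are under miR171 names, from which the run was taken. The 1 miR170 name is marked 5p and no name of the other arm was listed, so the families were not compared. The lowest deposited p-values of the miR170 records were 0.768 in XZ153 and 0.821 in ZD9, and 0 of these records were supported.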

How the data were processed

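Degradome libraries of XZ153 and ZD9 shoots were made, per the labels' protocols, from poly(A) RNA out of 20 µg of total RNA, with 15 PCR cycles and single 50 nt reads. Each deposited table is CleaveLand output, per the file headers and result paths. Version, filters and transcript release are not stated there. The deposited raw read count is per site and was read for ZD9. The deposited free energy ratio, Allen score and category (a score) and the authors' p-value were used as given. The 1 other numeric column, normalised reads of ZD9, was not used. Blank lines, 20 in XZ153 and 3 in ZD9, are not analysed here, and 11 ZD9 miR171 records without values entered only the counts of listed records.

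From these tables, records were counted, pairs were read from the listed alignments and exact intervals were computed with Python 3.11.15, pandas 2.3.3 and SciPy 1.17.1. The pairing step was tested on simulated duplexes that held no G:U pairs and had gaps only in the small RNA strand, beyond base 11. Counts of G:U pairs and other gaps were not tested. No test between cultivars was made with 1 library each. Genes were named if supported in either list, if paired at an Allen score of at most 4 under a mature name, or if among the 5 ZD9 genes with the most reads. Sequences were shown for supported sites and for sites at an Allen score of at most 2.5. Further genes, including those in category 0, were named after their values were seen. The members and lists were chosen with earlier results of these data known. Alternatives varied the p-value, category, Allen score, names and counting.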

Additional observations from a re-analysis of the deposited data

How the results depend on the processing

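No paired analysis was possible because each cultivar has 1 library and no result comes from a test between them. Supported miR171 genes in XZ153 numbered 2. The count stayed at 2 with a p-value of at most 0.01, with category 0 alone and with names that hold the core. It also stayed at 2 with an Allen score of at most 4. The deposited p-value already varies with pairing, so that alternative is not an independent check. The count was 4 with any category allowed, 4 when records were counted, 1 under mature names alone and 0 in the ID range shared with ZD9; the last is because both genes lie beyond that range. In ZD9 the count was 1, also with any category or as records, and 0 with a p-value of at most 0.01, with category 0 alone, under mature names, at an Allen score of at most 4 and with core names. The 100% category 0 share of well-paired genes in XZ153 rests on 1 gene and ran from 25.0% at an Allen score of at most 6 to 100% at 2.5. The alternatives by core names and by ID range were chosen after seeing the data. Library depth is unknown in both cultivars, and a site with no record may be one with no read sampled.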

Other observations

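The 11 miR171 records of ZD9 that carry no values all occur in the XZ153 list under the same name and position. There they fall on 7 genes, and the lowest deposited p-value is 0.894. Of the 11, 10 are category 4, where 73.4% of the whole XZ153 list was. How many of the other ZD9 records without values occur in XZ153 was not counted. The overlap is therefore not known to be particular to miR171.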
